A study of Mus musculus with 28 samples.

Results

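The CD229-CD11c- fraction of microglia sorted from cuprizone-fed mice was compared with basal microglia for the repressive histone mark H3K27me3, over all 26326 genomic regions of the deposited count table. The comparison used 6 of the 28 libraries of the series, chosen by their labels: 3 CD229-CD11c- libraries (replicates 1, 2 and 3) and the 3 basal libraries with counts (replicates 3, 4 and 5). All came from adult male wild-type C57BL/6 mice. The basal mice had a regular diet and their cells were labelled CD44LowCD45LowCD11bLow. The other mice had a 0.2% cuprizone diet for 4 weeks before sacrifice, and their cells were sorted as negative for both CD229 and CD11c. Brains of several mice were pooled for a sort, and the labels do not say which libraries share a sort or a pool, so that p-values speak only of the spread among libraries. The CD229+CD11c- and CD229+CD11c+ fractions of cuprizone-fed mice, 3 libraries each, entered the same model and are used below only to show where the CD229-CD11c- cells stood apart from them.

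H3K27me3 is the trimethylation of lysine 27 of histone H3, laid down by Polycomb repressive complex 2 and removed by the demethylases Kdm6a and Kdm6b. It covers CpG-rich starts of genes that a cell type keeps silent, with Hox and other developmental genes under the widest domains. Microglia are the resident macrophages of the brain. Cuprizone is a copper chelator that kills oligodendrocytes and strips myelin, to which microglia respond by taking up debris. CD229 (gene Ly9) is a receptor of the SLAM family and CD11c (gene Itgax) an integrin chain of activated microglia, so that the double-negative cells are those of the demyelinated brain that show neither surface marker.

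The regions were first checked against marker genes. Among the defining genes of homeostatic microglia, P2ry12, Tmem119, Cx3cr1, Csf1r and Sall1 were not overlapped by a region, against 3 of 3 neuronal markers (Rbfox3, Gad1, Gad2), 3 of 3 astrocyte markers (Gfap, Aqp4, Sox9) and 4 of 5 markers of the oligodendrocyte lineage. Of 4 peripheral macrophage markers 0 were overlapped as well (Ccr2, Mrc1, Lyve1, Cd163), so that these 4 do not separate microglia from blood-derived macrophages. In the longer lists used below, 8 of 22 peripheral macrophage genes were overlapped by a region, against 0 of 30 homeostatic microglia genes. Neither gene of the gate, Ly9 or Itgax, was overlapped by a region. The regions had been called in basal microglia, which limits the check for the cuprizone cells to the same places. In sorted bulk cells, fewer cells carrying the mark at a gene and less mark per cell cannot be told apart.

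The start sites of 4 genes on which the results turn are shown first, because each lies inside a region of the comparison and because regions with CpG-rich starts form the part of the table that leaned higher. Each is the RefSeq promoter window of GRCm38.p6, from 250 bases before to 50 bases after the start, in lower case with every CG dinucleotide in capitals. Gdnf lies at chr15:7813477-7813776 on the plus strand, with 22 CG dinucleotides. Pcolce2 lies at chr9:95637378-95637677 on the plus strand, with 17. Sema4b lies at chr7:80186620-80186919 on the plus strand, with 26. Lgals3 lies at chr14:47373610-47373909 on the plus strand, with 18.
Gdnf: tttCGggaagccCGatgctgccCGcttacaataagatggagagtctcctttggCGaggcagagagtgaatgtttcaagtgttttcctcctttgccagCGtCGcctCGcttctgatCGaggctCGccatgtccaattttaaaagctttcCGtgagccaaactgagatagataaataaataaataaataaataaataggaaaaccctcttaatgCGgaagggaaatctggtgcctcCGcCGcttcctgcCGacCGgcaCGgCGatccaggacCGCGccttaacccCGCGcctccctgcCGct
Pcolce2: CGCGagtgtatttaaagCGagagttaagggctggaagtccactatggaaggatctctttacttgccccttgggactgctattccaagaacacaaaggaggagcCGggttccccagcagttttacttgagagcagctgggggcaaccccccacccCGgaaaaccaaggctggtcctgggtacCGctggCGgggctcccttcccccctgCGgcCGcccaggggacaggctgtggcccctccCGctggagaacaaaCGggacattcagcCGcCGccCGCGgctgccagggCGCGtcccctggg
Sema4b: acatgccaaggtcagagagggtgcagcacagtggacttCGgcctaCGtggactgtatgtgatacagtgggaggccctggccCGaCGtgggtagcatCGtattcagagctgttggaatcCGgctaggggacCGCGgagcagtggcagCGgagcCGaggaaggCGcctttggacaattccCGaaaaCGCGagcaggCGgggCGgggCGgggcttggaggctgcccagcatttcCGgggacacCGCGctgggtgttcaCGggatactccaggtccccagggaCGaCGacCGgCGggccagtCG
Lgals3: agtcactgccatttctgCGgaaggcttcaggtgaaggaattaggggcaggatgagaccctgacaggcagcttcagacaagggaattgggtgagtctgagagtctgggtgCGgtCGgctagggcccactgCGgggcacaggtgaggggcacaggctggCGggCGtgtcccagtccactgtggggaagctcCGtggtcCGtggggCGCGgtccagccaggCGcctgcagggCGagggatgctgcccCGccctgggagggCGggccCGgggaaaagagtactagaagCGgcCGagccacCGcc
CG reads the same on both strands. The median over all 32820 promoter windows was 7, and 23.1% of windows held as many as the Gdnf window, 31.4% as many as that of Pcolce2, 16.9% as many as that of Sema4b and 29.7% as many as that of Lgals3. All 4 windows are thus richer in CG than the median window, but they do not stand for all named regions. The Gdnf region holds another Gdnf window with 11. The window of 5730435O14Rik, named below among the higher regions, held 5. The Lgals3 region was on the lower side.

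Between 7740002 and 11175711 tags of each of the 6 libraries fell in regions, and the median region had 151 to 222 of them. Levels are given as CPM, the tag count of a region scaled to a common library total after TMM scaling, which sets the libraries to a common level over the regions, so that a change of the mark over the whole genome would not be seen. Of the 6 libraries, CD229-CD11c- replicate 3 stood apart. Its median absolute difference in log2 CPM was 0.232 from replicate 1 and 0.226 from replicate 2 of its own group, but 0.143 from basal replicate 3. Replicates 1 and 2 differed from each other by 0.125, the basal libraries differed from each other by 0.134 to 0.157, and basal replicate 5 lay 0.14 and 0.134 from CD229-CD11c- replicates 1 and 2. The first principal component, with 45.6% of the variance, put CD229-CD11c- replicate 3 at -30.5 and basal replicate 3 at -18.7, against 25 and 22.6 for CD229-CD11c- replicates 1 and 2. These 2 replicates numbered 3 are also the 2 of the 6 libraries whose titles lack the tag PE150, which the labels do not explain (the read length is given as 150 for all 6). The results are therefore given with all libraries first, and then by tag and without replicate 3.

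**Figure D1:**
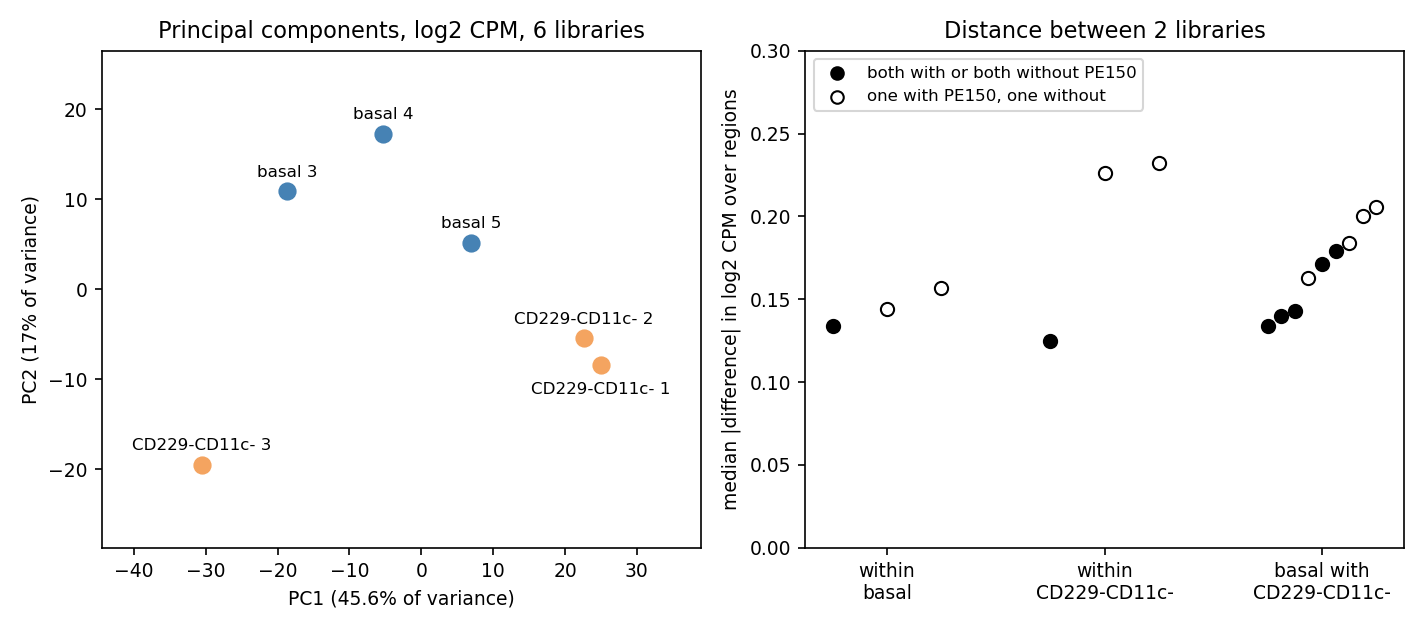
Left, the 6 libraries on the first (x) and second (y) principal components of log2 CPM over all regions, basal in blue and CD229-CD11c- in orange. Right, the median absolute difference in log2 CPM (y) for each pair of libraries, one point a pair, filled where both or neither title carries PE150; CD229-CD11c- replicate 3 makes the pairs at 0.226 and 0.232 within its own group.

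No region passed the test between CD229-CD11c- and basal microglia, the cells of the demyelinated brain without either marker and those of untreated brain. By edgeR's quasi-likelihood test, 0 regions were higher and 0 lower at a Benjamini-Hochberg adjusted p under 0.05 (0% of 26326 in each direction), and the smallest adjusted p was 0.983. At an unadjusted p under 0.05 there were 675 higher regions (2.56%) and 428 lower regions (1.63%). All 3 CD229-CD11c- libraries lay above all 3 basal libraries in 1102 regions (4.19%) and below them in 1163 (4.42%). DESeq2 and limma voom also called 0 regions, with 560 higher and 341 lower by the former and 597 and 451 by the latter at an unadjusted p under 0.05. The authors' deposited table for this pair of groups gives a smallest adjusted p-value of 0.9999, with 361 regions higher and 200 lower at its unadjusted p under 0.05.

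The intervals bound how large a difference the data leave room for. The median standard error of a log2 fold change was 0.14, and the 95% interval lay within a 1.5-fold difference in either direction in 21704 regions (82.4%) and within a 2-fold difference in 26019 (98.8%). The estimate itself was beyond 1.5-fold in 100 regions (0.38%) and beyond 2-fold in 2. The lean towards higher values among the small p-values depended on the scaling: with libraries scaled by their total counts, 456 regions were higher and 674 lower at an unadjusted p under 0.05. The median fold change over all regions then moved from 0.0078 to -0.018 on the log2 scale.

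**Figure D2:**
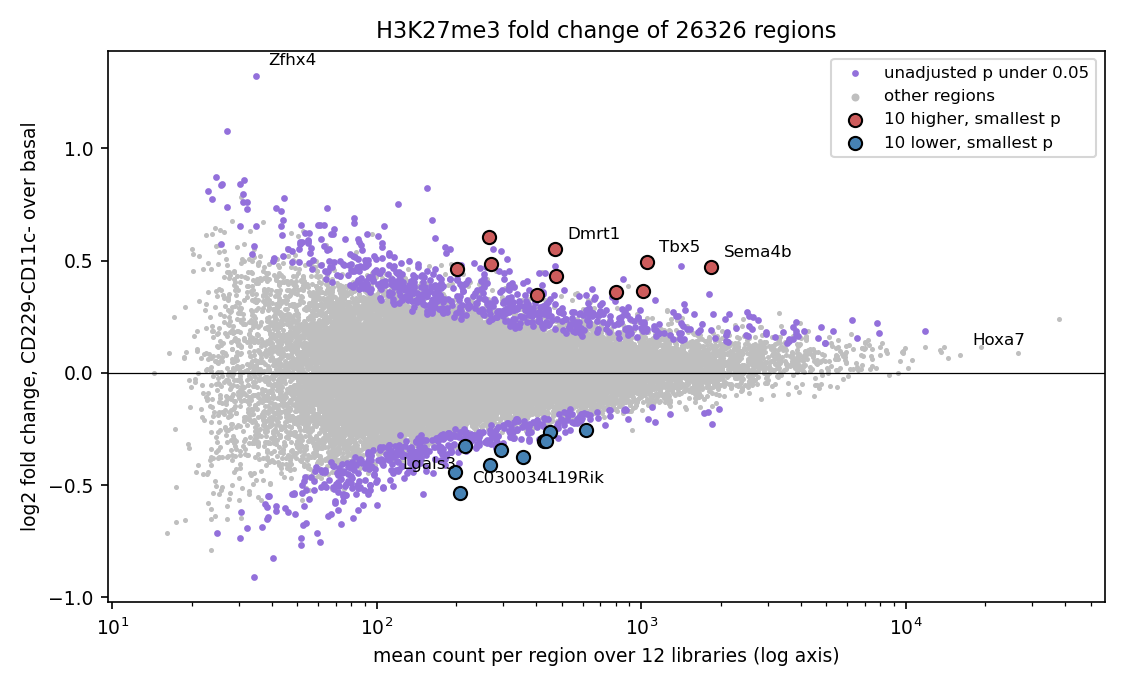
Log2 fold change of CD229-CD11c- over basal (y) against the mean count of a region over the 12 libraries (x, log axis), one point a region, with the regions of unadjusted p under 0.05 in purple and the 10 of smallest p in each direction as outlined dots, red for higher and blue for lower. No point passed the adjusted threshold, and the spread narrows with the count, so that Zfhx4 at 1.32 is a region of few tags while Hoxa7 at 0.079 is among those with the most.

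The regions closest to passing on the higher side lay mostly at gene starts, among them those of developmental and neuronal genes. These are the 10 with the smallest unadjusted p among regions of at least the median count, 1 a gene, and they are named as closest to the threshold and not as changed, with an adjusted p of 0.983 for each. Of the 10, 8 lay within 5 kb of a start site and 6 held a RefSeq promoter window, against 19.2% and 19.5% of all regions. Those shares include regions under the median count, which could not be chosen. The shares among the regions that could be chosen were not computed, so the excess is not measured here. Dmrt1 encodes a transcription factor of testis differentiation. Its intronic region (chr19:25501970-25513530) measured 54.5, 46.1 and 41.4 CPM in CD229-CD11c- replicates 1, 2 and 3 and 29.9, 30.8 and 36.1 CPM in basal replicates 3, 4 and 5. The groups did not overlap, and the log2 fold change was 0.55 with a standard error of 0.11 (95% interval 0.32 to 0.78; unadjusted p 7.6e-05 in edgeR). Tbx5, a T-box factor of heart and forelimb, measured 113.38, 102.97 and 73.85 CPM against 72.0, 64.6 and 69.2 CPM in its region at chr5:119827478-119847858. Replicates 1 and 2 were far above the basal libraries and replicate 3 lay just over the highest of them, for a log2 fold change of 0.49 (SE 0.13).

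A ligand and its receptor were both among these 10. Gdnf is a neurotrophic factor of neurons and glia, and Gfra1 the co-receptor through which it signals. The Gdnf region (chr15:7803457-7821538), which holds the window printed above, measured 98.3, 88.8 and 71.1 CPM in CD229-CD11c- cells against 68.1, 66.1 and 66.5 CPM in basal cells. The Gfra1 region (chr19:58449958-58459177) measured 46.3, 42.3 and 37.2 CPM against 28.7, 31.6 and 32.9 CPM. The groups did not overlap at either gene, and in both replicate 3 was the CD229-CD11c- library closest to basal. The log2 fold changes were 0.36 (SE 0.10) and 0.43 (SE 0.12).

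Pcolce2 encodes an enhancer of procollagen processing, and its promoter region (chr9:95633322-95641079) measured 39.1, 37.0 and 33.7 CPM against 29.9, 27.1 and 29.4 CPM, a log2 fold change of 0.34 (SE 0.09). Scrt1, a zinc-finger repressor of neurons, measured 79.0, 74.5 and 61.0 CPM against 53.3, 51.1 and 62.2 CPM. Scrt1 was the one of the 10 whose groups overlapped, because replicate 3 fell under basal replicate 5. Among all regions, 4.19% had groups apart in this direction. The small p that chose the 10 favours such regions, so their lack of overlap is no separate result. Parva, an actin-binding protein of focal adhesions, measured 28.6, 27.5 and 19.8 CPM against 16.4, 18.3 and 19.2 CPM. The promoter region of the gene 5730435O14Rik measured 17.6, 15.9 and 20.4 CPM against 14.5, 10.4 and 10.8 CPM, the largest fold of the 10 at 0.61 (SE 0.15). A region in an intron of Btbd11 measured 22.8, 26.6 and 22.3 CPM against 15.7, 16.2 and 19.9 CPM.

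Sema4b had the opposite order of replicates. It encodes a transmembrane semaphorin, a family of guidance ligands, and its region (chr7:80169322-80191413) holds the 26-CG window printed above. It measured 112.9, 119.3 and 172 CPM in CD229-CD11c- replicates 1, 2 and 3 against 106.7, 90.4 and 95.0 CPM in basal replicates 3, 4 and 5. The groups did not overlap, with replicate 3 the highest of the 6 libraries, and the log2 fold change was 0.47 (SE 0.13; 95% interval 0.20 to 0.74). A neighbouring region upstream (chr7:80159841-80167167) measured 34.4, 26.6 and 32.2 CPM against 28.6, 21.3 and 26.8 CPM, where the groups overlapped.

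The 10 regions closest to passing on the lower side were of another kind. Of these, 9 were annotated as intergenic, against 58.8% of all regions, 1 lay within 5 kb of a start site and 1 held a RefSeq promoter window. Here too the share of all regions includes those under the median count, which could not be chosen. All 10 had groups that did not overlap, against 4.42% of all regions in this direction. The small p that chose them would favour this, so it is no separate result. The largest was the region next to the gene C030034L19Rik (chr3:9395932-9406392), at 16.4, 19.7 and 28.4 CPM against 32.2, 29.9 and 31.8 CPM. Replicates 1 and 2 were well under the basal libraries and replicate 3 came close to them, for a log2 fold change of -0.54 (SE 0.16). Near Leprot, which encodes an endosomal protein, a region that overlaps Dnajc6 and not Leprot measured 14.3, 17.8 and 18.8 CPM. The basal libraries had 23.5, 24.5 and 21.1 CPM, for a log2 fold change of -0.44 (SE 0.13). Next to Fbxo10, an F-box subunit of a ubiquitin ligase, the values were 20.1, 22.7 and 26.4 CPM against 31.3, 31.8 and 29.2 CPM. Near Zcchc7, an RNA-binding cofactor of the exosome on the same chromosome 4, they were 33.1, 28.1 and 35.2 CPM against 38.7, 46.5 and 40.3 CPM.

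At Rab28 and Dck, replicate 3 was the CD229-CD11c- library furthest from basal. Next to Rab28, a small GTPase of cilia, the values were 29.4, 27.3 and 24.3 CPM against 34.0, 35.5 and 33.1 CPM, a log2 fold change of -0.34 (SE 0.10). Near Dck, which phosphorylates deoxycytidine, they were 41.3, 39.9 and 33.4 CPM against 46.4, 50.2 and 44.4 CPM. The remaining members were near 5430434I15Rik, Pepd (a dipeptidase of collagen turnover), Ythdf3 (a reader of m6A in RNA) and Wdfy3 (a scaffold of selective autophagy). Their log2 fold changes lay between -0.33 and -0.25. The gene named for each region is only the nearest, and in 6 of the 10 its start lies more than 10 kb away.

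**Figure D3:**
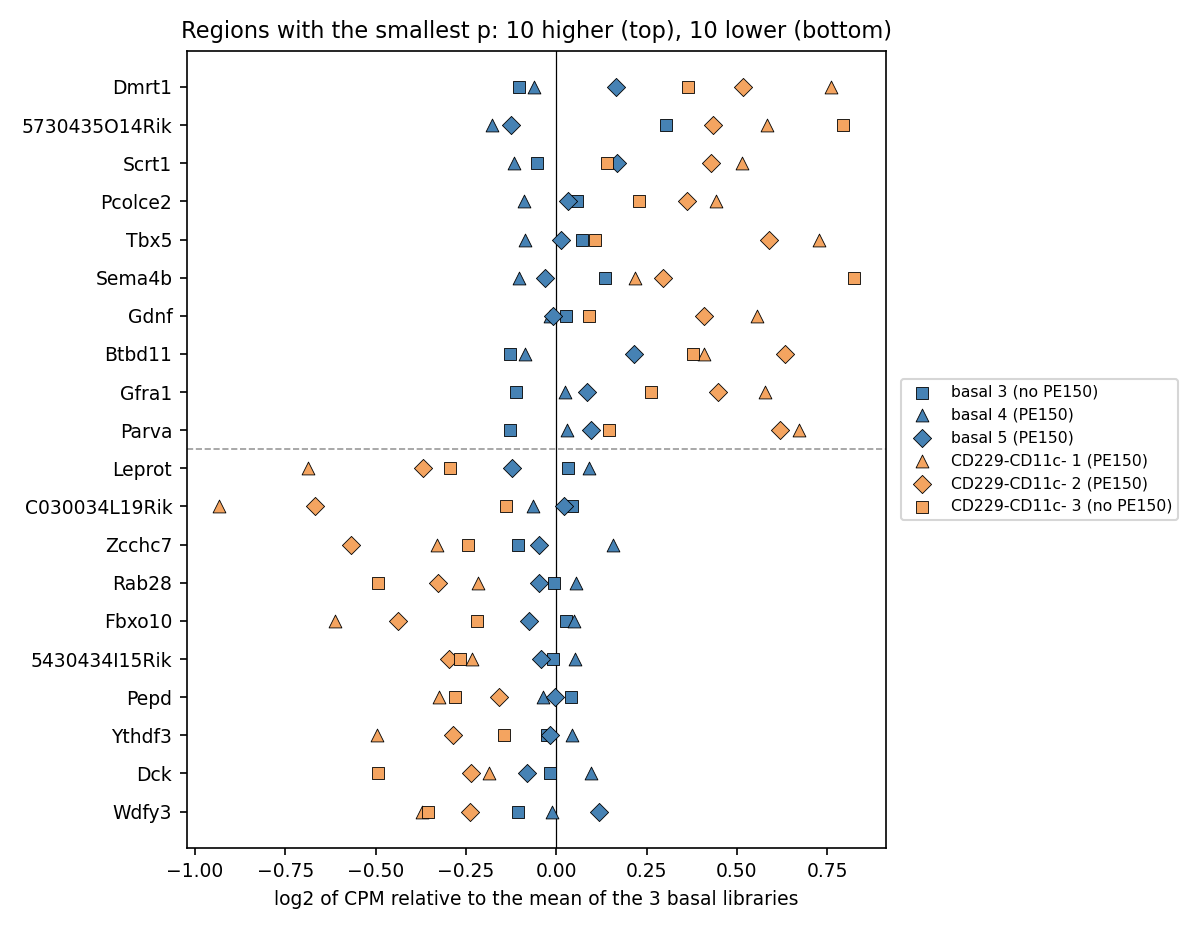
Log2 of CPM relative to the mean of the 3 basal libraries (x) for the 10 higher and 10 lower regions of smallest p (y), one marker a library, squares for the libraries without the PE150 tag. In Tbx5, Gdnf and C030034L19Rik the orange square of CD229-CD11c- replicate 3 lies by the blue basal markers, and in Sema4b and 5730435O14Rik it is the highest.

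Among the gene lists, which assign each region to its nearest gene, those of developmental regulators leaned higher, though 0 regions of any list passed the test. The list of homeobox and Pax genes outside the Hox clusters, transcription factors of embryonic patterning, had 186 regions with a median log2 fold change of 0.10, against 0.0078 for all regions. Of these, 21 were higher (11.3%) and 2 lower (1.1%) at an unadjusted p under 0.05, against the 2.56% and 1.63% of all regions given above. The median lay 0.15 and 0.13 above the basal mean in CD229-CD11c- replicates 1 and 2 and at -0.015 in replicate 3. Barhl2, a homeobox factor of neurons, measured 238, 228 and 216 CPM against 202, 171 and 199 CPM over a region of 39.0 kb. The groups did not overlap, and the log2 fold change was 0.25 (SE 0.08; adjusted p 0.983 in edgeR).

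Zfhx4, a large zinc-finger homeobox factor, had the greatest estimate of all 26326 regions. A short intronic region (chr3:5227935-5229520) measured 5.32, 4.04 and 7.83 CPM against 2.30, 2.21 and 2.42 CPM. It is annotated on an LTR element, a kind of repeat, 7531 bp from the start, and holds no RefSeq promoter window. The log2 fold change was 1.32 (SE 0.29; 95% interval 0.71 to 1.93), from a mean count of 34.9 tags over the 12 libraries, and the adjusted p was 0.983. The CD229+CD11c- libraries measured 2.89, 1.99 and 2.13 CPM there, 1 above and 2 below the basal libraries, and were lower than the CD229-CD11c- libraries by the model (log2 fold change -1.29, SE 0.30, adjusted p 0.0072 in edgeR).

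The list of forkhead, T-box, Sox, GATA, bHLH and zinc-finger regulators had 221 regions with a median of 0.042. At an unadjusted p under 0.05, 18 were higher (8.1%) and 2 lower (0.9%), against 2.56% and 1.63% of all regions. Growth factors and morphogens, with 140 regions, had a median of 0.057, with 12 higher (8.57%) and 0 lower. A region of 118.7 kb whose nearest gene is Vegfa, the growth factor of blood vessels, measured 609, 590.4 and 493 CPM against 457, 454 and 528 CPM, with replicate 3 inside the basal range. The neuronal list, with 80 regions of transmitter, channel and synapse genes, had a median of 0.077, with 7 higher (8.75%) and 0 lower. Npy, a neuropeptide, measured 86.5, 88.0 and 72.4 CPM against 72.6, 70.2 and 67.7 CPM. In each of these 3 lists the median of replicate 3 was below that of the basal mean, at -0.019, -0.056 and -0.046, while replicates 1 and 2 were above it. With total-count scaling the list medians were 0.073 for homeobox and Pax genes, 0.017 for forkhead and related genes, 0.032 for growth factors and 0.051 for the neuronal list, against -0.018 for all regions.

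The Hox clusters, the widest Polycomb domains, did not pass the test either. The region over the Hoxa cluster (156 kb) measured 1342, 1282 and 1588 CPM against 1527, 1216 and 1244 CPM. The region over the Hoxc cluster, the largest of the 4 at 410.3 kb, measured 2479, 2370.0 and 2381 CPM against 2447, 2128 and 2223 CPM. The log2 fold changes were 0.079 for Hoxa, 0.11 for Hoxb, 0.089 for Hoxc and 0.092 for Hoxd, with standard errors of 0.06 to 0.09. With offsets that remove any trend against abundance, those of Hoxa, Hoxc and Hoxd were -0.017, -0.029 and -0.0057 (nearest genes Hoxa7, Hotair and Mir10b), so no direction is given for them.

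The lists of microglial states did not lean together. Homeostatic microglia had 23 regions near 10 of its 30 genes, none over a gene body, with a median of -0.018. At an unadjusted p under 0.05, 1 was higher (4.35%) and 0 lower, against 2.56% and 1.63% of all regions. The disease-associated list, the genes that microglia switch on around damaged myelin and plaques, had 50 regions with a median of -0.011, 2 higher (4.0%) and 1 lower (2.0%). The lower one was at Lgals3 (galectin-3, a lectin of phagocytic microglia), in a region (chr14:47372854-47376837) that holds the Lgals3 window printed above. It measured 12.6, 14.3 and 16.3 CPM against 21.6, 18.2 and 20.4 CPM. The groups did not overlap, and the log2 fold change was -0.48 (SE 0.16; 95% interval -0.81 to -0.14; adjusted p 0.983 in edgeR).

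Interferon-response genes had 22 regions with a median of -0.011, 2 higher (9.09%) and 1 lower (4.55%), against 2.56% and 1.63% of all regions. Irf7, the master regulator of the type I interferon response, measured 11.7, 11.6 and 11.6 CPM against 13.9, 14.3 and 13.9 CPM. The groups did not overlap and each was tight, yet the standard error of the model, 0.18 for a log2 fold change of -0.27, rests on the spread of all 4 groups and of regions with like counts. Immediate-early genes, switched on within minutes of a stimulus, had 80 regions with a median of -0.015, 2 higher (2.5%) and 4 lower (5.0%). The replicates of that list split, at -0.13 in each of replicates 1 and 2 and 0.12 in replicate 3. Antigen presentation, with 17 regions, had a median of -0.078 and 0 in either direction, and split in the same way at -0.157, -0.245 and 0.157, with basal replicate 3 at 0.125. Ciita, the activator of MHC class II, measured 13.7, 13.1 and 15.5 CPM against 17.8, 14.2 and 16.7 CPM. The lists of cytokine and NF-kappa-B genes (55 regions, median -0.034) and of lipid handling (17 regions, 0.017) had 0 regions in either direction.

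Some genes that write and erase the mark are themselves among the regions. Of 32 listed, 7 were overlapped by a region and 14 were named as the nearest gene of a region. The list of Polycomb and H3K27 demethylase genes had 37 regions with a median of 0.025. At an unadjusted p under 0.05, 1 was higher (2.7%) and 2 lower (5.4%), against 2.56% and 1.63% of all regions. The 2 lower lay away from the starts of Aebp2 and Jarid2, both cofactors of Polycomb repressive complex 2. The region nearest Aebp2 measured 7.19, 6.81 and 4.93 against 10.6, 12.2 and 7.34 CPM. That nearest Jarid2 measured 4.79, 6.94 and 7.06 against 8.80, 9.29 and 8.63 CPM. At Bmi1, a subunit of Polycomb repressive complex 1, the values were 7.30, 7.57 and 12.6 CPM against 10.8, 7.36 and 8.80 CPM. The Bmi1 groups overlapped, and the log2 fold change was 0.043 (SE 0.22).

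Lists of other cell types were followed because a sort could hold such cells. These are levels of a silencing mark and say nothing direct about expression. Lymphocyte genes had 75 regions with a median of 0.025. At an unadjusted p under 0.05, 2 were higher and 2 lower (2.67% each), against 2.56% and 1.63% of all regions. Cd3e measured 163, 166 and 152 CPM against 151, 139 and 149 CPM. The 2 genes of smallest p in that list went opposite ways, at log2 fold changes of -0.43 (SE 0.17) and 0.31 (SE 0.13). Oligodendrocyte lineage genes had 29 regions with a median of 0.064, 1 higher (3.45%) and 0 lower. Olig2 measured 262, 242 and 238 CPM against 246, 214 and 237 CPM. Here too the 2 genes of smallest p went opposite ways, at 0.55 (SE 0.24) and -0.13 (SE 0.07). Astrocyte genes had 54 regions with a median of -0.013, 3 higher (5.56%) and 1 lower (1.85%). The smallest p among them was that of Sox9, at 86.0, 77.5 and 58.8 CPM against 61.4, 55.1 and 58.9 CPM, where replicate 3 lay within the basal range. Endothelial and mural genes had 62 regions with a median of 0.021, 3 higher (4.84%) and 2 lower (3.23%). Peripheral macrophage genes had 27 regions with a median of -0.0049, 1 higher (3.7%) and 0 lower. Neutrophil and dendritic cell genes had 14 with a median of 0.0059, 1 higher (7.14%) and 0 lower. With total-count scaling the medians of the lipid, lymphocyte, neutrophil and dendritic cell, and endothelial lists were below 0. Cell cycle inhibitors had 8 regions (median 0.053), with 1 higher, at Cdkn1c. The SLAM family, to which CD229 belongs, had 2 regions, both of few tags and overlapping between the groups.

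**Figure D4:**
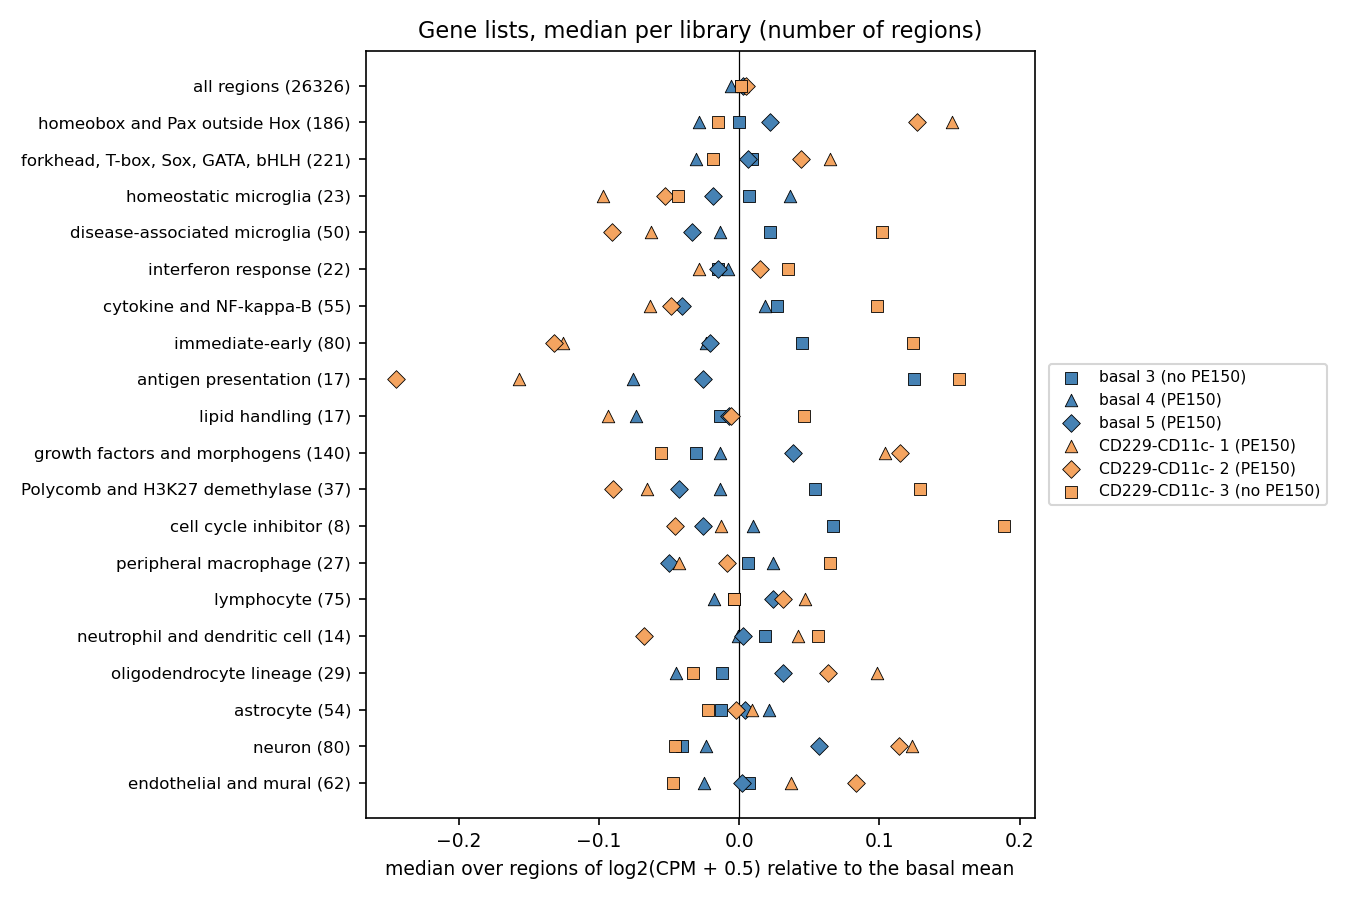
Median over the regions of a list of log2(CPM + 0.5) relative to the basal mean (x), one marker a library, for all regions and for each gene list of at least 5 regions (y). The developmental, growth factor and neuronal lists have both PE150 libraries of CD229-CD11c- at the right and replicate 3 near or left of 0, and the immediate-early and antigen presentation lists have the reverse.

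The lean towards gene starts showed in classes of regions fixed by position and not by gene name. Regions annotated as promoters (899) had a median log2 fold change of 0.061 and those centred on a CpG island (158) of 0.11, while those on LINE elements (2495) had -0.023 and intergenic regions (15486) -0.0022. In the promoter and CpG island classes the lean was in replicates 1 and 2 and not in replicate 3. Medians relative to the basal mean were 0.104, 0.060 and -0.003 for promoters in replicates 1, 2 and 3. For CpG islands they were 0.182, 0.13 and -0.004. The 5054 regions within 5 kb of a start had a median log2 fold change of 0.036 but no such split. They lay at 0.040, 0.015 and 0.026 in those replicates, and at 0.032 in basal replicate 3. With total-count scaling the median was 0.035 for promoters, 0.079 for CpG islands and -0.049 for LINE elements, against -0.018 for all regions. At an unadjusted p under 0.05, 12 CpG island regions were higher (7.6%) and 0 lower. Of the LINE regions, 40 were higher (1.6%) and 75 lower (3.0%). Among all regions 2.56% were higher and 1.63% lower. Among the 5139 regions that hold a RefSeq promoter window, the median was larger with a higher CG content of the richest window, at 0.0099 where it held at most 5 CG dinucleotides, 0.037 from there up to 17, and 0.066 above 17 (-0.015, 0.012 and 0.041 with total-count scaling). In the last class, of 1636 regions, 6.54% were higher and 0.37% (6 regions) lower at an unadjusted p under 0.05. The 2632 regions of the top decile of basal enrichment over input had a median of 0.055, and the 524 regions of at least 50 kb also had 0.055. The latter became -0.0030 with offsets that remove a trend against abundance, and the former 0.031. Relative to the basal mean, CD229-CD11c- replicate 3 was at 0.018 in the top decile and -0.028 in the regions of at least 50 kb. In the class richest in CG it was at 0.015.

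Shares of a library's tags in such classes did not pass a test. CpG island regions held 0.620%, 0.602% and 0.578% of the tags of CD229-CD11c- replicates 1, 2 and 3 and 0.590%, 0.555% and 0.576% of those of basal replicates 3, 4 and 5. Promoter regions held 3.69% ± 0.056 (SD, n = 3) against 3.60% ± 0.059 (SD, n = 3), and LINE regions 7.21% ± 0.20 (SD, n = 3) against 7.38% ± 0.13 (SD, n = 3). Over the 10 classes the smallest p was 0.2 in a two-sided exact permutation test of 3 libraries against 3, which cannot go below 0.1, and the smallest adjusted p was 0.4286. The groups overlapped in each of the classes named here.

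The CD229-CD11c- cells were set beside the CD229+ fractions of the same diet at genes where those fractions stand apart. The genes were picked because earlier results of these data show differences in the CD229+ fractions, so their levels serve as a description. The CD229+CD11c- fraction against the CD229-CD11c- fraction gave 1777 higher (6.75%) and 422 lower regions (1.6%), and the CD229+CD11c+ fraction gave 0.395% higher and 0.152% lower (40 regions). In a fit of the 9 cuprizone libraries alone, the counts were 1586 higher and 290 lower for CD229+CD11c-, and 86 and 32 for CD229+CD11c+. With the replicate number as a block in that fit, they were 3155 and 1440, and 1554 and 471. The 2 comparisons share the CD229-CD11c- libraries, with replicate 3 among them.

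At Lgals3 the 4 groups stood in order. The CD229+CD11c- libraries measured 5.98, 7.01 and 9.09 CPM and the CD229+CD11c+ libraries 2.43, 2.71 and 3.54 CPM, below the 12.6 to 16.3 CPM of the CD229-CD11c- libraries. The log2 fold changes against CD229-CD11c- were -0.98 (SE 0.18; adjusted p 8.2e-04 in edgeR) and -2.30 (SE 0.20; adjusted p 3.2e-06 in edgeR). The region that the authors added at Bhlhe40, a transcription factor of activated macrophages, was another case. It measured 29.5, 30.5 and 33.2 CPM in CD229-CD11c- and 39.5, 31.7 and 34.8 CPM in basal cells, which overlapped, and 10.8, 14.0 and 14.7 CPM in CD229+CD11c- and 7.39, 10.7 and 13 CPM in CD229+CD11c+ cells. Its tags are also counted within a broad region of the list. Myof, a membrane repair protein, had an intronic region at 5.73, 6.94 and 7.15 CPM in CD229-CD11c- cells against 5.40, 5.61 and 6.21 CPM in basal cells, and at 1.80 to 2.12 and 0.80 to 1.11 CPM in the CD229+ fractions.

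At Igf1, Ch25h and an intron of Egr2, the CD229-CD11c- libraries also overlapped with basal ones. Igf1, a growth factor of remyelination, measured 7.09, 6.94 and 13.5 CPM against 8.30, 11.6 and 9.49 CPM, with 4.09 to 4.49 and 3.16 to 4.24 CPM in the CD229+CD11c- and CD229+CD11c+ fractions. Ch25h, which makes 25-hydroxycholesterol, measured 17.4, 17.7 and 21.5 CPM against 22.8, 15.9 and 16.4 CPM, with 7.52 to 10.4 and 7.96 to 8.91 CPM in the CD229+ fractions. An intronic Egr2 region, an immediate-early factor, measured 13.8, 12.5 and 18.3 CPM against 17.6, 13.8 and 18.1 CPM, and 2.48 to 3.18 CPM in CD229+CD11c+ cells. The Myof and Egr2 introns were chosen after their values in the CD229+ fractions were seen.

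In other genes the replicates of the CD229-CD11c- group divided. Axl, a receptor that binds dying cells, measured 6.15 and 7.32 CPM in replicates 1 and 2 but 13.9 CPM in replicate 3, against 12.3 to 13.2 CPM in basal cells. Replicates 1 and 2 were thus within or just over the range of the CD229+CD11c- fraction (3.97 to 6.73 CPM), and replicate 3 was above every basal library. Egr1 divided likewise, at 23.1, 24.9 and 38.3 CPM against 32.1 to 39.0 CPM. Oasl2, an interferon-induced gene, measured 101.2, 88.6 and 129.9 CPM against 117.4 to 144 CPM, and 48.2 to 61.6 CPM in CD229+CD11c- cells. Pdgfa, a growth factor of oligodendrocyte precursors, was tight at 11.7, 11.4 and 11.6 CPM against 16.1, 12.6 and 15.7 CPM, a log2 fold change of -0.36 (SE 0.18; adjusted p 0.983 in edgeR).

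Where the CD229+ fractions had more of the mark, the CD229-CD11c- libraries lay between the CD229+CD11c- and basal libraries or overlapped with the latter. Sema4b measured 278 to 335 CPM in CD229+CD11c- and 205 to 251 CPM in CD229+CD11c+ cells, above the 113 to 172 CPM of CD229-CD11c- cells (log2 fold changes of 1.14 and 0.74, with adjusted p of 1.9e-05 and 0.0086 in edgeR). Gdnf measured 132.2 to 155 and 108.1 to 129.9 CPM in the CD229+ fractions, above the 71.1 to 98.3 CPM of CD229-CD11c- cells (log2 fold changes of 0.75 and 0.50, with adjusted p of 4.6e-05 and 0.018 in edgeR). Barhl2 had 320 to 349 and 267 to 313 CPM there against 216 to 238 CPM. Gbp7, a guanylate-binding protein of the interferon response, had 19.8 to 27.3 CPM in CD229+CD11c- cells against 8.65, 9.59 and 13.8 CPM in CD229-CD11c- and 8.30, 9.57 and 6.04 CPM in basal cells. Bmi1 measured 21.9 to 32.3 CPM in CD229+CD11c- cells, against 7.30 to 12.6 CPM in CD229-CD11c- cells. Cux2, a homeobox factor of cortical neurons, and Mmp15, a membrane-bound matrix metalloproteinase, had 43.8 to 46.9 and 37.5 to 45.2 CPM in CD229+CD11c- cells against 18.3 to 20.5 and 18.3 to 19.7 CPM in CD229-CD11c- cells.

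**Figure D5:**
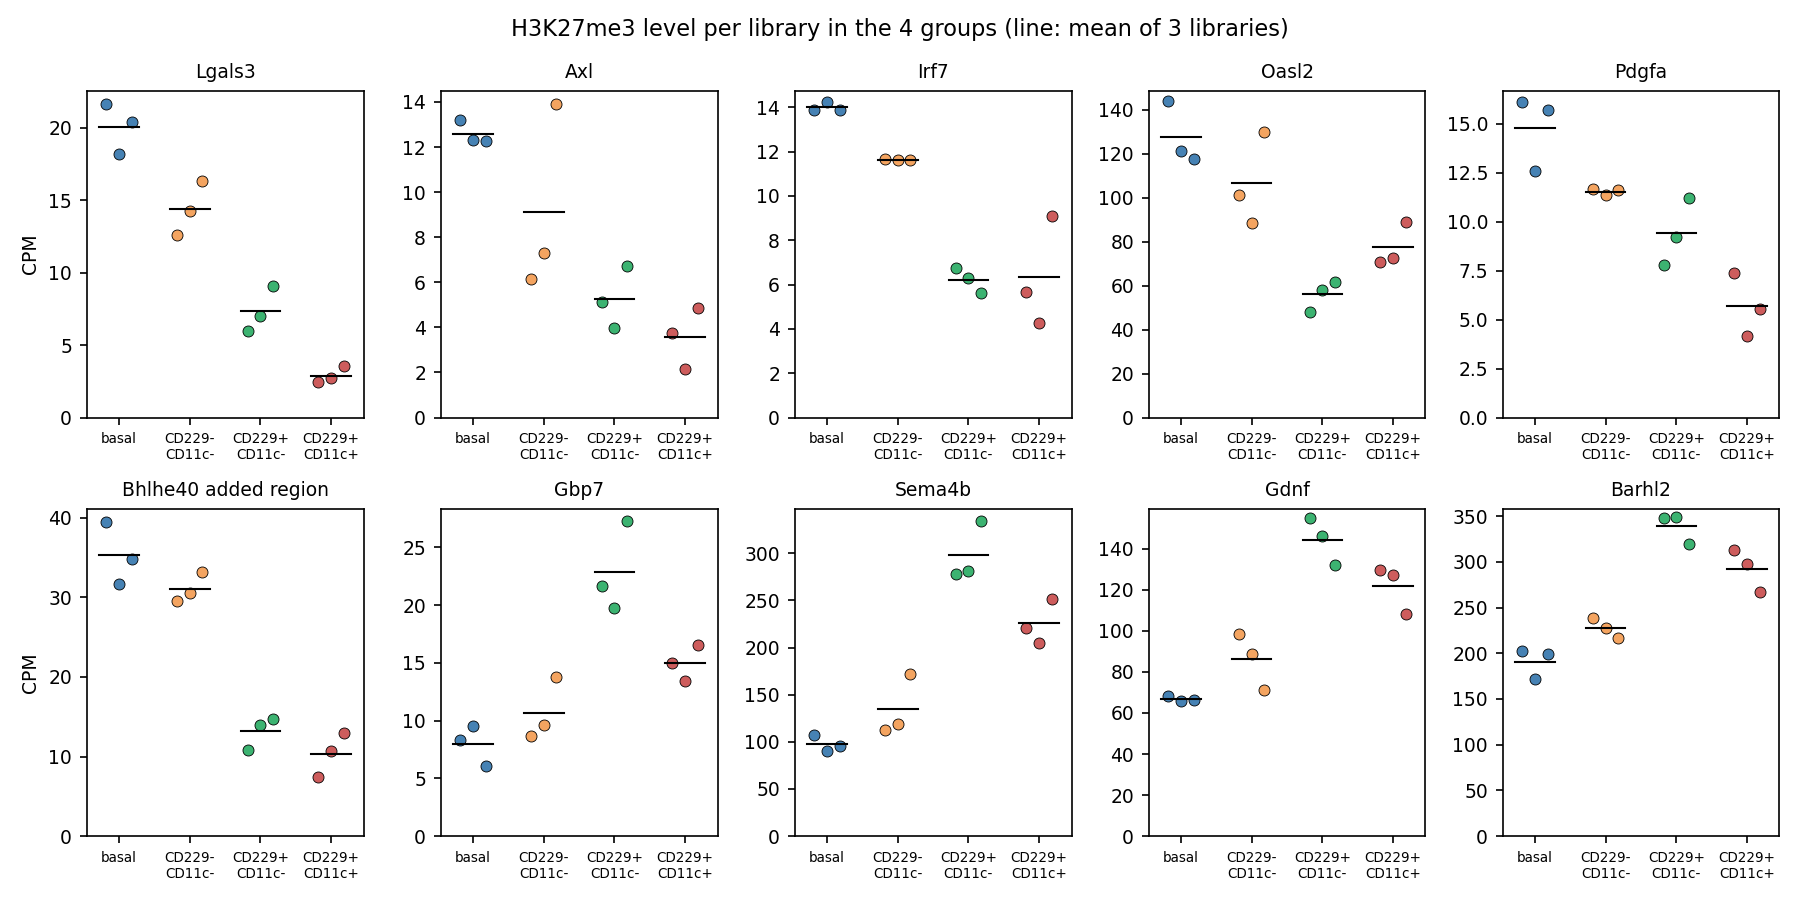
H3K27me3 level in CPM (y, from 0) in each library of the 4 groups (x), for 10 regions, with the mean of 3 libraries as a line. At Lgals3 the CD229-CD11c- libraries lie between basal and both CD229+ fractions, at Axl their replicates divide, and at Sema4b and Gdnf they lie below both CD229+ fractions.

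Whether any region passed depended on how the PE150 tag and replicate 3 were handled. With the tag as a covariate in the model, 32 regions were called higher (0.122%) and 1 lower (0.0038%). A barcode set made from the tag and the barcode numbers gave 18 higher (0.0684%) and 1 lower (0.0038%). All of these were among the calls of the tag covariate. The set put the untagged libraries together whatever their barcodes and split the tagged ones by barcode number. It thus grouped basal replicates 3, 4 and 5 with CD229-CD11c- replicates 3, 1 and 2 in that order. A fit of the tagged libraries alone, those of all 4 groups, compared basal replicates 4 and 5 with CD229-CD11c- replicates 1 and 2. It called 916 regions, 787 of them higher (2.99%) and the others lower (0.49%). The tagged CD229+ libraries entered its estimate of the spread. The untagged libraries are 1 against 1 and allow no test. Without CD229-CD11c- replicate 3, 28 were called higher (0.106%) and 2 lower (0.0076%), all 30 among the 916 of the tagged libraries. Leaving out any other 1 of the 6 libraries left 0 calls. The tag and replicate 3 of the CD229-CD11c- group cannot be told apart, since it is that group's one untagged library.

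Replicate 3 did not enter the fit of the tagged libraries, and its values at the called regions were near basal. The 787 higher ones had median deviations from the basal mean of 0.40 and 0.33 in replicates 1 and 2 and -0.086 in replicate 3, and the lower ones of -0.49, -0.44 and 0.045. Replicates 1 and 2 chose these regions, which favours large deviations in them, so the gap to replicate 3 is no separate result. Of the 787, 434 held a RefSeq promoter window (55.2%, against 19.5% of all regions). Against the 2.99% of all regions called higher, they took in 36 of the 186 regions of the homeobox and Pax list (19.4%), 32 of the 221 of forkhead and related genes (14.5%), 21 of the 140 of growth factors (15.0%) and 13 of the 80 of the neuronal list (16.2%). Of the other lists, lymphocyte genes had 4 of 75, endothelial and mural genes 4 of 62, astrocyte genes 3 of 54, homeostatic microglia 2 of 23 and immediate-early genes 2 of 80, and each remaining list had 0 or 1. Tbx5 had an adjusted p of 4.8e-14 there (log2 fold change 0.70, edgeR). Hmx1, a homeobox factor of cranial neurons, measured 158, 133 and 82.0 CPM against 82.9, 82.4 and 102.9 CPM, so that replicate 3 was under every basal library. Wipf1, a regulator of actin assembly in leukocytes, was called lower there with 60.8 and 54.1 CPM in replicates 1 and 2, but had 100.9 CPM in replicate 3 against 75.9 to 100.6 CPM in basal cells.

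Tbx5, Dmrt1 and C030034L19Rik passed with the tag as a covariate and also without replicate 3. With the tag as a covariate, Sema4b had a log2 fold change of 0.45 (SE 0.06; adjusted p 1.1e-05 in edgeR), Dmrt1 one of 0.55 (SE 0.09; adjusted p 1.2e-04 in edgeR), Tbx5 one of 0.48 (SE 0.08; adjusted p 0.0025) and C030034L19Rik one of -0.55 (SE 0.12; adjusted p 0.025). Without replicate 3, Tbx5, Dmrt1, Gdnf and C030034L19Rik passed, at log2 fold changes of 0.66, 0.64, 0.49 and -0.80. The covariate calls and those without replicate 3 shared 13 regions, of 33 and 30. What the tag stands for and its part in these differences were not tested.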

How the data were processed

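H3K27me3 ChIP-seq of sorted mouse microglia was analysed from the authors' deposited tables. Per the file headers, the authors called the regions with HOMER and DESeq2 on basal replicates 1 and 2 against input, in mm10. The deposited raw count table gives tag counts per region for 12 libraries over that list and 1 added region (counting tool not given in the sources used here). The submitters' processing notes also name fastp 0.20.0 and Bowtie2 2.3.4.1. The authors' log2 fold over input set the classes of basal enrichment. The region size in bp is another deposited column, and the deposited score column is a placeholder that was not used. The authors' normalized signal, log2 fold changes and p-value columns served for comparison. Input was not subtracted.

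Counts were tested with edgeR 4.0.16 (TMM, robust quasi-likelihood, 4 groups in 1 model, group as the only term; filterByExpr removed 0 regions) in R 4.3.3, with Benjamini-Hochberg adjustment over all regions. The test was checked on simulated counts with known fold changes. Alternatives were other scalings, DESeq2 1.42.0, limma voom 3.58.1, the PE150 tag or barcode set as a covariate, count filters, each library left out in turn, and 2 chosen after seeing the data (regions overlapping a RefSeq gene, and the 9 cuprizone libraries without a block). Same-numbered libraries deviated together between the CD229-CD11c- and CD229+ fractions (r of 0.283, 0.128 and 0.457 with CD229+CD11c-, and 0.237, 0.134 and 0.417 with CD229+CD11c+), so the blocked counts are given. CD229-CD11c- replicate 2 correlated more with the CD229+ replicates numbered 1 (0.248 and 0.184), so the data do not single out its own number. With CD229-CD11c- replicates 1, 2 and 3, r was -0.252, -0.262 and 0.361 for basal replicate 3. For basal replicate 4 it was -0.0164, 0.0329 and -0.0108, and for basal replicate 5 it was 0.283, 0.248 and -0.373. Correlations of like size thus arose between mice of different diets. Regions named are the 10 of smallest p each way with at least the median count and a gene symbol, 1 a gene; the smallest-p region of each gene compared with the CD229+ fractions; the region with the most tags in each Hox cluster; the 2 smallest p of each gene list; and the 3 smallest p each way of settings with calls. Other named regions were chosen after their values were seen, the marker genes of other cell types among them. The comparison, the genes and the 21 gene lists were chosen with earlier results of these data known. The tables name the nearest gene, and 40 gene names turned into dates were left unnamed. Promoters came from RefSeq, GRCm38.p6. A few genes are not reported here.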

Additional observations from a re-analysis of the deposited data

How the results depend on the processing

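The count of regions called between CD229-CD11c- and basal microglia was 0 under total count scaling, DESeq2 size factors, loess offsets, the 6 libraries alone, both filters, DESeq2, limma voom, an adjusted p under 0.1 and without the added region. It was 33 with the PE150 tag as a covariate, 19 with the barcode set, 916 in the tagged libraries alone, and 0 to 30 when 1 library was left out, with the 30 without CD229-CD11c- replicate 3; the cause was not tested. The median of all fold changes was -0.018 with total count scaling. No paired analysis by replicate number was possible because basal and CD229-CD11c- libraries share only the number 3. The barcode set is not independent of the tag, since it uses barcode numbers only to split the tagged libraries. Its 19 calls were all among the 33 of the tag covariate. For CD229+CD11c- against CD229-CD11c-, 2199 calls became 4370 with the tag as a covariate; in the 9 cuprizone libraries they were 1876 without a block and 4595 with the replicate block. For CD229+CD11c+, 144 became 1638 with the tag, 322 by DESeq2 and 50 in the 6 libraries alone; in the 9 cuprizone libraries they were 86 higher and 32 lower without a block and 2025 with the replicate block. The block moved some named regions past the threshold: for CD229+CD11c+, Egr1, Irf7, Oasl2, Gbp7, Cux2, Bmi1 and an intergenic Myof region, and for CD229+CD11c-, Axl, Egr1 and the distal Kdm6b region; it changed no other call of a gene compared.

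Directions turned against basal with loess offsets at the regions of Hoxa7 (-0.017), Hotair (-0.029) and Mir10b (-0.0057), and in the tagged libraries alone at Bmi1 (-0.12). For CD229+CD11c- against CD229-CD11c-, that of a distal Egr2 region turned with total count scaling (-0.11). With 1 library left out, the fold changes ranged from -0.48 to 0.084 at Igf1, -0.038 to 0.22 at the proximal Kdm6b region, -0.063 to 0.22 at Ch25h, -0.27 to 0.19 at Bmi1 and -0.019 to 0.19 at Hoxa7. At counts near the median of 188 tags a region, only differences well over the median standard error of 0.14 could be seen.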
